A study of Mus musculus with 30 samples.

Results

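Immediate early genes were measured by RNA-seq in the kidney and gastrocnemius of mice from a diet-induced NAFLD study. The 10 genes described here, *Fos*, *Fosb*, *Jun*, *Junb*, *Egr1*, *Egr2*, *Atf3*, *Ier2*, *Nr4a1* and *Dusp1*, were chosen by symbol and each was found once in both count tables, among 54838 genes in kidney and 55487 in gastrocnemius. Male C57BL/6J mice, wild type by their labels, were kept at 30 to 32 °C from the age of 6 weeks. From Week 7 they received a chow diet with water (CD), a western diet with water (WD), or the western diet with cyclo(His-Pro), a cyclic dipeptide of histidine and proline, at 20 mg/kg by gavage 3 times per week (WD + CHP). They were euthanised at Week 24 after a fast of 3 h. There were 5 libraries for each group in each tissue (30 altogether). The groups share sex, strain, housing and fast. No label ties a kidney library to a gastrocnemius library of one animal, and the labels name frozen liver as the starting material throughout, where the study's methods name each tissue. All 6 proximal tubule markers passed the filter on low counts in kidney and 0 of 6 in gastrocnemius, whereas 2 and 7 of 7 fast fibre markers passed, respectively.

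Immediate early genes are transcribed within minutes of a stimulus, without new protein synthesis, when MAP kinases and CREB kinases act on factors such as SRF, its ELK partners and CREB that already sit on their promoters. Their mRNAs are short-lived, so their level at one moment reflects recent stimulation. Most members encode transcription factors. FOS, FOSB, JUN and JUNB pair into AP-1, EGR1 and EGR2 bind GC-rich sites through zinc fingers, NR4A1 is an orphan nuclear receptor, and ATF3 is a bZIP factor of the ATF/CREB family known for its induction by cellular stress. IER2 is a small nuclear protein, and DUSP1 is a phosphatase that switches MAP kinases off. In skeletal muscle *Nr4a1* is known for its response to adrenergic stimulation and contraction.

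The genes lie at *Fos* (chr12:85473890-85477273, plus strand), *Fosb* (chr7:19302696-19310051, minus strand), *Jun* (chr4:95049034-95052222, minus strand), *Junb* (chr8:84974484-84978718, minus strand), *Atf3* (chr1:191170296-191218039, minus strand), *Egr1* (chr18:34859823-34864984, plus strand), *Egr2* (chr10:67535475-67542188, plus strand), *Nr4a1* (chr15:101254269-101274795, plus strand), *Ier2* (chr8:84661331-84662852, minus strand) and *Dusp1* (chr17:26505590-26562128, minus strand) on GRCm38 (GENCODE M21). The exons of 3 of them overlap an exon of a gene on the other strand, *Junb* with *Prdx2* over 173 bp, *Jun* with *Junos* over 232 bp and *Dusp1* with *Ergic1* over 11 bp. The strand setting of the counting is not given in the sources used here, so reads in these stretches cannot be assigned to one gene of the pair.

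RefSeq promoter windows (GRCm38.p6) were held for 8 of the 10 genes, the exceptions being *Egr1* and *Ier2*. The 250 bases before each start were searched on both strands for the elements through which the pathway acts: the CArG box that SRF binds, TGACGTCA and its core TGACG that CREB and ATF proteins bind, TGANTCA for AP-1, GCGNGGGCG for EGR proteins, and TATAAA. Every TGACGTCA also holds 2 overlapping TGACG sites, 1 on each strand. Of the 8 genes, 7 (all but *Jun*) had TGACG, against 19.8% of 26994 genes with a window. TGACGTCA was found in 1, *Dusp1*, against 1.77% of genes, and the CArG box in 1, *Egr2*, against 1.63%. GCGNGGGCG was found in 2, *Fosb* and *Nr4a1*, against 5.33%, TATAAA in 1, *Fos*, against 14.3%, and TGANTCA in 0 of 8, against 7.82%. A match is a run of letters in the reference and not a measured binding site. Sequence farther upstream than 250 bases or after the start was not searched, so a gene without a match here may hold the element elsewhere.

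The stretches with these motifs are shown for *Fos*, the classic member, for *Atf3*, the member that changed below, and for *Dusp1*, *Nr4a1* and *Egr2*, which hold the full CREB element, the most TGACG sites and the CArG box. They run 5′ to 3′ on the gene's strand, with the searched motifs in capitals (CGTCA is TGACG on the other strand). Positions are counted back from the start: *Fos* -150 to -1 (chr12:85473740-85473889, plus strand), *Atf3* -150 to -1 (chr1:191183334-191183483, minus strand), *Dusp1* -200 to -51 (chr17:26508523-26508672, minus strand), *Nr4a1* -250 to -1 (chr15:101266596-101266845, plus strand) and *Egr2* -120 to -21 of 1 of its 5 starts (chr10:67537749-67537848, plus strand).
Fos: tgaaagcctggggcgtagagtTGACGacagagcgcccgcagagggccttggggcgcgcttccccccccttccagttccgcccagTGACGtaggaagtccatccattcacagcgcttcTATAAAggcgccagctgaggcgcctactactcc
Atf3: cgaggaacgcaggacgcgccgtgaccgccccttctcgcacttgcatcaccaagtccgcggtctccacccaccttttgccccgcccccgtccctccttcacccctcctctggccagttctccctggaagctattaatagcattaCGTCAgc
Dusp1: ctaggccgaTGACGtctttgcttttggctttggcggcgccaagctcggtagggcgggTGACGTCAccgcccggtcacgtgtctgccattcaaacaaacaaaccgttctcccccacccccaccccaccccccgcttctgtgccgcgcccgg
Nr4a1: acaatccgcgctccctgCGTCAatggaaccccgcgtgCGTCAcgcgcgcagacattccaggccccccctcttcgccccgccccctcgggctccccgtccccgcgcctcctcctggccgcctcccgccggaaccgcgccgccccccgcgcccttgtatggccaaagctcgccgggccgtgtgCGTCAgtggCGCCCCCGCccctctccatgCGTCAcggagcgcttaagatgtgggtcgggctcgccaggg
Egr2: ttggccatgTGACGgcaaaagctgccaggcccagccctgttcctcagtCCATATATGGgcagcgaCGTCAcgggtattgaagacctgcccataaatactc
*Nr4a1* had 4 TGACG sites, *Fos* 2 TGACG sites with TATAAA 33 bases before its start, and *Atf3* 1 TGACG site in the last 7 bases. In *Egr2* the CArG box stood between 2 TGACG sites. In GENCODE M21 the *Fos* stretch lies upstream of the gene model, and the other 4 lie inside a longer model of their own gene.

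The kidney libraries held 37189192 to 38211422 counts, of which 17.8% to 21.1% were mitochondrial, and the gastrocnemius libraries 50319024 to 53282969, with 7.74% to 11.5% mitochondrial. Levels are given as CPM, counts scaled to a common library size with TMM factors. Each library is RNA of 1 mouse, per the study's methods.

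In CD mice the members covered a wide range of levels, and their order differed between the tissues. Per kilobase of exon, *Dusp1* was highest in kidney, at 19.6 ± 6.17 CPM per kb (SD, n = 5), with no overlap with *Jun* at 10.8 ± 2.80. *Junb* (7.38 ± 1.54), *Egr1* (5.92 ± 3.32) and *Ier2* (4.10 ± 0.749) followed, and each overlapped its neighbour in this order. *Nr4a1* (1.62 ± 0.541) lay below *Ier2* without overlap and did not differ from *Fos* (1.60 ± 1.19) beyond their spread, *Atf3* stood at 0.341 ± 0.0914, *Fosb* at 0.0983 ± 0.101 and, without overlap, *Egr2* at 0.0107 ± 0.0116. In gastrocnemius *Nr4a1* was highest by this measure, at 59.7 ± 15.2 CPM per kb, with no overlap with *Jun* (33.3 ± 3.28), which did not overlap *Dusp1* (18.7 ± 4.77). *Fos* (6.24 ± 3.64), *Junb* (5.77 ± 1.63), *Egr1* (4.37 ± 2.32) and *Ier2* (3.46 ± 0.888) overlapped each other in turn, then came, each without overlap with the one before, *Atf3* (1.78 ± 0.495) and *Egr2* (0.367 ± 0.0949), and last *Fosb* (0.252 ± 0.144), which overlapped *Egr2*.

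In CD libraries the mean CPM of *Nr4a1* was 36.9-fold higher in gastrocnemius than in kidney, that of *Atf3* 5.23-fold and that of *Jun* 3.08-fold, without overlap between the tissues. *Egr2* did not overlap either and had 0 to 3 counts per library in kidney. The other 6 genes overlapped, with ratios of 3.90 for *Fos*, 2.56 for *Fosb*, 0.953 for *Dusp1*, 0.844 for *Ier2*, 0.781 for *Junb* and 0.738 for *Egr1*. Tissue and depth differ together here and cannot be told apart, and the labels, unlike the study's methods, also give the tissues different extraction kits. The kidney counts list 54838 genes and the gastrocnemius counts 55487, and some symbols differ, such as *Cyr61* in kidney and *Ccn1* in gastrocnemius for the same gene. The annotation behind each is not given, and its part in these tissue differences was not tested. No test was made between tissue levels.

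In kidney, no member passed the test for the WD or for CHP, and single libraries stood far above their groups. *Egr2* had 0 to 3 counts per library and was not tested, and 0 counts allow a level of up to 0.0834 CPM (3 counts, counting error only). The other 9 members passed the filter on low counts. *Fos*, *Fosb*, *Jun* and *Junb*, the AP-1 subunits, are given first. *Fos* was at 6.78, 1.84, 2.35, 1.06 and 6.79 CPM in the CD libraries, at 2.98, 2.49, 5.55, 2.74 and 3.33 in the WD libraries and at 1.54, 2.60, 1.81, 8.10 and 0.541 in the WD + CHP libraries. *Fosb* was at 1.73, 0.467, 0.235, 0.232 and 0.407 CPM in the CD libraries, at 0.132, 0.345, 1.06, 0.950 and 0.672 in the WD libraries and at 0.444, 0.520, 0.306, 1.08 and 0.216 in the WD + CHP libraries. The WD + CHP group held both the highest and the lowest *Fos* value of the 15 kidney libraries, in replicates 4 and 5. *Jun* was at 43.1, 33.0, 32.3, 21.4 and 42.7 CPM in the CD libraries, at 44.3, 40.4, 77.5, 39.9 and 39.7 in the WD libraries and at 36.4, 50.2, 45.0, 76.6 and 23.9 in the WD + CHP libraries. *Junb* was at 16.8, 14.4, 15.7, 14.9 and 23.1 CPM in the CD libraries, at 19.7, 20.1, 23.6, 14.7 and 23.9 in the WD libraries and at 13.0, 19.5, 16.3, 30.9 and 18.5 in the WD + CHP libraries. The groups overlapped for all 4 subunits.

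*Atf3* was low in kidney. It was at 0.628, 0.986, 0.471, 0.748 and 0.840 CPM in the CD libraries, at 0.712, 0.795, 1.22, 1.03 and 1.09 in the WD libraries and at 0.627, 1.12, 0.807, 1.53 and 0.812 in the WD + CHP libraries. The zinc finger factor *Egr1* varied most. *Egr1* was at 38.8, 15.6, 23.5, 10.0 and 44.9 CPM in the CD libraries, at 25.2, 18.3, 54.8, 25.8 and 36.6 in the WD libraries and at 16.3, 41.1, 23.9, 146 and 5.74 in the WD + CHP libraries. WD + CHP replicate 4 was over the 14 other kidney libraries in *Egr1*, and replicate 5 was below them. The nuclear receptor gene *Nr4a1* and the small nuclear factor gene *Ier2* had narrower ranges. *Nr4a1* was at 8.80, 5.55, 4.42, 3.92 and 5.70 CPM in the CD libraries, at 5.80, 6.18, 7.74, 7.49 and 6.77 in the WD libraries and at 9.01, 6.46, 4.51, 13.4 and 3.63 in the WD + CHP libraries. *Ier2* was at 6.89, 5.60, 6.77, 4.57 and 7.38 CPM in the CD libraries, at 6.75, 5.80, 7.53, 5.17 and 6.10 in the WD libraries and at 5.48, 6.35, 5.40, 8.65 and 4.68 in the WD + CHP libraries. *Dusp1* was at 93.7, 62.7, 46.0, 46.3 and 76.5 CPM in the CD libraries, at 87.0, 92.7, 122, 82.8 and 66.3 in the WD libraries and at 74.1, 65.1, 57.9, 129.6 and 51.0 in the WD + CHP libraries. *Dusp1*, the MAP kinase phosphatase, again peaked in WD replicate 3 and WD + CHP replicate 4, and the groups of these 5 genes overlapped.

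**Figure D1:**
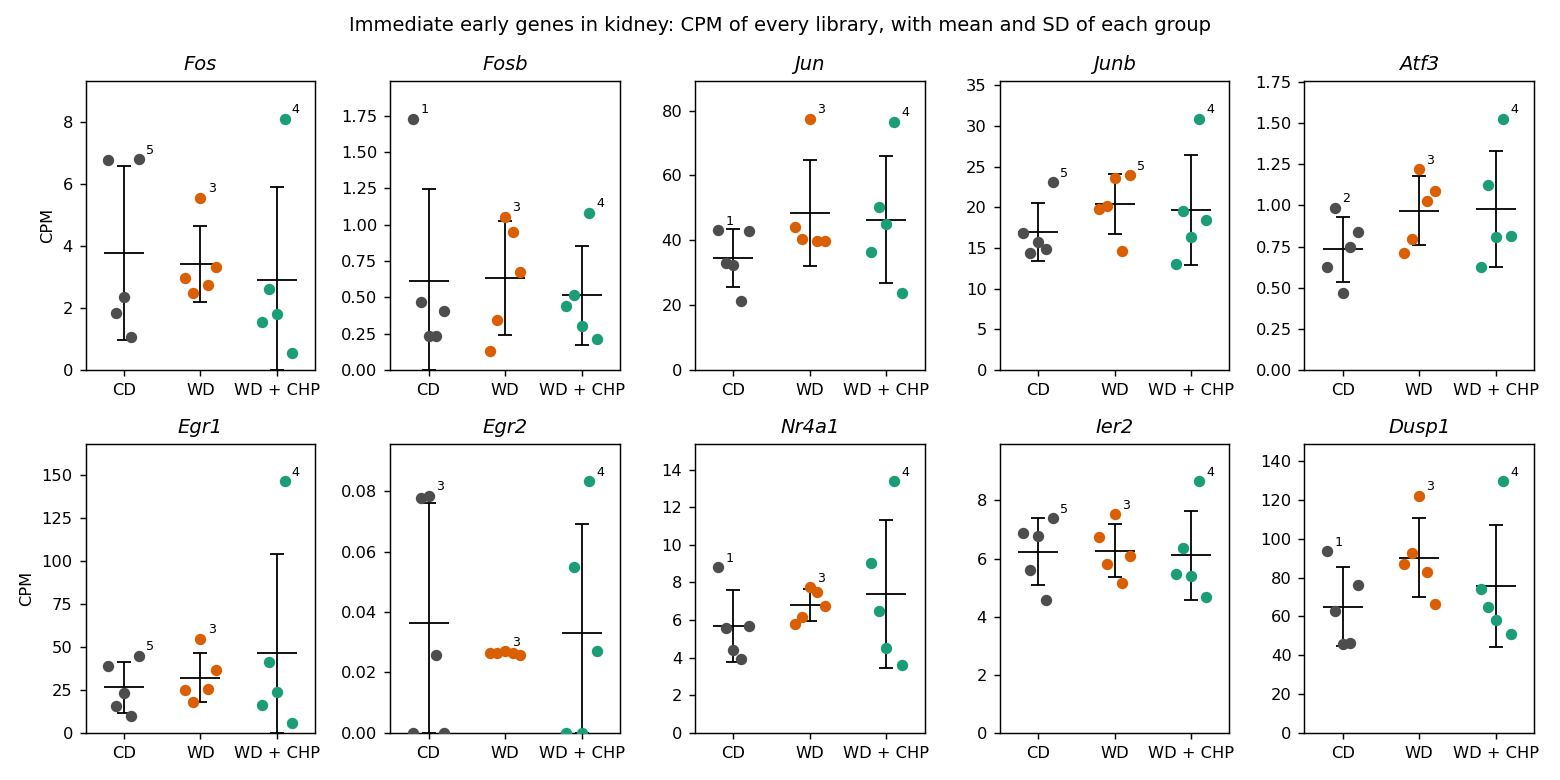
CPM of the 10 immediate early genes in each of the 15 kidney libraries by group; bars are the mean and SD of 5 libraries (lower end stopped at 0), and small digits give the replicate with the highest value. WD + CHP replicate 4 is the highest of its group in all 9 genes that passed the filter.

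The comparison of WD with CD asks what the diet did to these genes in kidney. Of the 9 members tested, 0 were called (edgeR quasi-likelihood test, adjusted p under 0.05), where 9.65% of all 17120 genes tested were. None had an unadjusted p under 0.05, against 24.9% of all genes, and DESeq2 and limma-voom also called 0. Fold changes were positive for 8 members and negative for 1, with a median of 0.26 on the log2 scale, against 0.0015 over all genes. The members' median was 0.16 without CD replicate 4 and 0.45 without CD replicate 1, and without WD replicate 3 it was 0.21, with 5 members positive and 4 negative. The sign of *Fos* turned to 0.16 with limma-voom and that of *Ier2* to -0.013 with total count scaling. The largest were *Jun* at 0.49 (SE 0.26, adjusted p = 0.271), *Dusp1* at 0.47 (SE 0.24, adjusted p = 0.239) and *Atf3* at 0.40 (SE 0.25, adjusted p = 0.339). With 1 library left out *Jun* ranged from 0.25 to 0.58, *Dusp1* from 0.34 to 0.64 and *Atf3* from 0.28 to 0.53. The intervals show what could have been missed: the 95% interval of the log2 fold change of *Dusp1* ran from -0.055 to 1.00, that of *Ier2* from -0.34 to 0.35, and that of *Egr1* from -1.08 to 1.63. *Nr4a1* was at 0.26 (SE 0.28), *Egr1* at 0.28 (SE 0.62), *Junb* at 0.26 (SE 0.19), *Fosb* at 0.040 (SE 0.57), *Ier2* at 0.0064 (SE 0.16) and *Fos* at -0.14 (SE 0.56).

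In gastrocnemius 1 member, *Atf3*, rose with the WD. *Atf3* was at 2.50, 5.03, 4.03, 3.03 and 4.63 CPM in the CD libraries, at 10.4, 9.10, 13.4, 8.57 and 17.8 in the WD libraries and at 9.57, 8.14, 17.0, 14.5 and 22.5 in the WD + CHP libraries. All 5 WD and all 5 WD + CHP libraries were above all 5 CD libraries. Mean levels were 3.84 ± 1.07 CPM (SD, n = 5) for CD, 11.9 ± 3.82 for WD and 14.3 ± 5.80 for WD + CHP. The log2 fold change was 1.62 (SE 0.28, adjusted p = 0.00186) for WD vs. CD, a 3.08-fold rise with a 95% interval from 2.02 to 4.70, in the quasi-likelihood test. The WD + CHP group, which shares the CD libraries, gave 1.90 (SE 0.28, adjusted p = 9.2e-04) against CD, or 3.73-fold. For both comparisons the adjusted p is Benjamini-Hochberg over the 15419 genes tested.

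*Dusp1* and *Junb* had the next smallest p and did not pass the threshold. *Dusp1* was at 61.7, 63.9, 37.8, 64.6 and 82.0 CPM in the CD libraries, at 85.7, 89.4, 77.0, 113 and 115 in the WD libraries and at 41.0, 71.4, 138, 78.0 and 68.1 in the WD + CHP libraries. The log2 fold change of *Dusp1* was 0.63 (SE 0.25, adjusted p = 0.123) for WD vs. CD, with 4 of 5 WD libraries above the highest CD library. *Junb* was at 17.2, 12.1, 11.1, 8.77 and 17.1 CPM in the CD libraries, at 7.03, 6.74, 7.89, 12.0 and 11.3 in the WD libraries and at 6.76, 8.12, 16.7, 6.98 and 6.95 in the WD + CHP libraries. For *Junb*, an AP-1 subunit that often opposes JUN, it was -0.56 (SE 0.26, adjusted p = 0.198) for WD vs. CD. The groups overlapped in both genes. Their unadjusted p-values were 0.0205 and 0.0446 in the same edgeR fit.

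The remaining AP-1 subunits spread widely within each group. *Fos* was at 28.2, 13.1, 6.02, 9.28 and 16.8 CPM in the CD libraries, at 13.7, 9.79, 13.6, 28.4 and 23.7 in the WD libraries and at 5.97, 11.4, 39.8, 7.45 and 9.28 in the WD + CHP libraries. *Fosb* was at 2.67, 1.23, 0.779, 0.794 and 2.38 CPM in the CD libraries, at 2.38, 2.10, 0.932, 4.01 and 1.59 in the WD libraries and at 0.468, 0.725, 4.06, 0.608 and 0.992 in the WD + CHP libraries. In both genes the highest library of each group was CD replicate 1, WD replicate 4 and WD + CHP replicate 3. *Jun* was at 98.5, 99.4, 102, 107 and 124 CPM in the CD libraries, at 101, 101, 95.2, 112 and 84.3 in the WD libraries and at 69.0, 78.3, 121, 103 and 127 in the WD + CHP libraries. *Jun* was steadier, between 69.0 and 127 CPM in all libraries.

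*Egr1* and *Egr2* differed by an order of magnitude in level. *Egr1* was at 36.6, 19.2, 10.4, 11.8 and 19.9 CPM in the CD libraries, at 11.5, 10.6, 14.8, 21.6 and 17.0 in the WD libraries and at 7.86, 10.8, 58.8, 4.98 and 11.5 in the WD + CHP libraries. *Egr2* was at 1.22, 1.63, 0.974, 0.896 and 1.52 CPM in the CD libraries, at 0.915, 1.70, 1.48, 1.66 and 2.39 in the WD libraries and at 1.31, 0.610, 2.82, 1.49 and 1.26 in the WD + CHP libraries. The highest value of both was again in WD + CHP replicate 3. *Nr4a1* was at 181, 159, 291, 181 and 234 CPM in the CD libraries, at 197, 194, 199, 244 and 240.4 in the WD libraries and at 159.9, 190.2, 293, 229 and 173 in the WD + CHP libraries. *Ier2* was at 7.39, 5.60, 4.21, 4.03 and 5.11 CPM in the CD libraries, at 4.71, 5.66, 5.15, 6.66 and 5.93 in the WD libraries and at 4.62, 5.07, 10.97, 4.18 and 4.96 in the WD + CHP libraries. *Nr4a1*, the most abundant member in this tissue, stayed within 159 to 293 CPM, and the groups overlapped in all 4 genes.

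**Figure D2:**
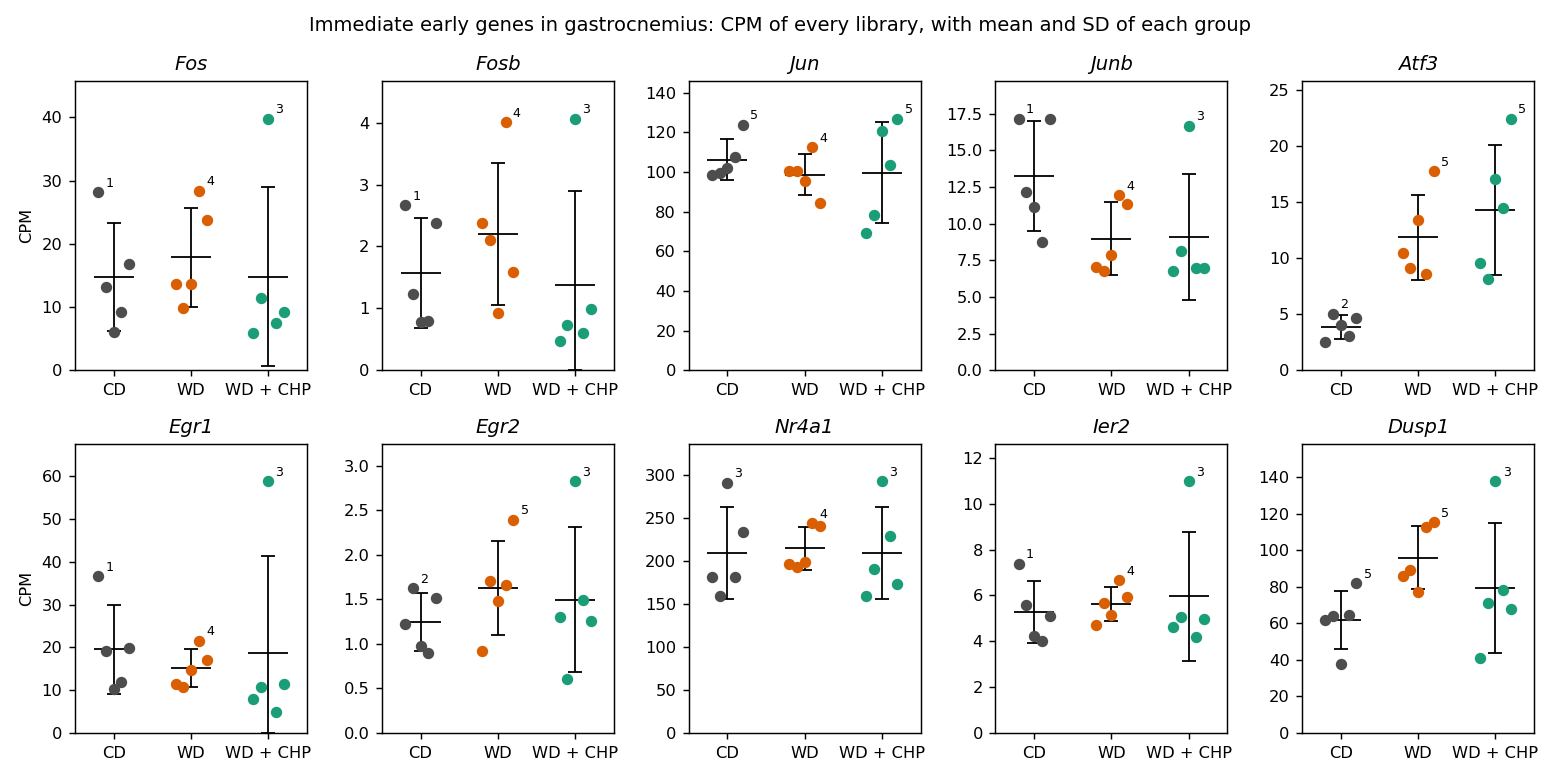
CPM of the 10 immediate early genes in each of the 15 gastrocnemius libraries by group; bars are the mean and SD of 5 libraries (lower end stopped at 0), and small digits give the replicate with the highest value. For Atf3 the CD libraries (2.50 to 5.03 CPM) lie below all WD and WD + CHP libraries (8.14 CPM or more), and in the other 9 genes the groups overlap.

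All 10 members passed the filter in gastrocnemius. For WD vs. CD 1 of 10 was called, where 8.63% of all 15419 genes were, and 3 (*Atf3*, *Dusp1* and *Junb*) had an unadjusted p under 0.05, against 23.7% of all genes. The median log2 fold change of the members was 0.19, against 0.0013 over all genes, with 7 positive and 3 negative. With 1 library left out it ranged from 0.037, without WD replicate 4, to 0.31, without CD replicate 1. *Fosb* was at 0.48 (SE 0.54), *Egr2* at 0.38 (SE 0.32), *Egr1* at -0.38 (SE 0.53) and *Fos* at 0.28 (SE 0.49). With 1 library left out *Fosb* ranged from 0.15 to 0.76, *Egr2* from 0.21 to 0.53, *Egr1* from -0.54 to -0.024 and *Fos* from 0.049 to 0.66. *Jun* was at -0.11 (SE 0.14), with a 95% interval from -0.41 to 0.19, *Ier2* at 0.093 (SE 0.23) and *Nr4a1* at 0.037 (SE 0.17), with an interval from -0.33 to 0.40. The interval of *Fos*, which varied more between libraries, ran from -0.79 to 1.35.

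The comparison of WD + CHP with WD asks what CHP did on top of the diet. In kidney 0 of 9 members were called, where 0.105% of all genes were, and in gastrocnemius 0 of 10, where 0.409% were. None had an unadjusted p under 0.05 in either tissue, against 11.4% and 12.5% of all genes, and DESeq2 and limma-voom called 0 in both. The median log2 fold change of the members was -0.057 in kidney and -0.012 in gastrocnemius, against -0.0058 and -0.013 over all genes. Leaving out 1 library moved these medians in both directions, and in no such fit was a member called (edgeR). The kidney median was -0.31 without WD + CHP replicate 4, with 9 of 9 members negative, but 0.039 without WD replicate 3, with 7 of 9 positive. It was also above 0, at 0.0066 to 0.046, without WD + CHP replicate 1, 3 or 5. The gastrocnemius median was -0.40 without WD + CHP replicate 3, with 9 of 10 negative, and it was above 0, at 0.030 to 0.075 with 6 of 10 positive, when 1 of 4 other libraries was removed: replicate 4 or 5 of WD, or replicate 1 or 2 of WD + CHP. *Atf3* in gastrocnemius was at 0.27 (SE 0.26, adjusted p = 0.721), with a 95% interval from -0.29 to 0.84, and the *Atf3* values of the WD + CHP and WD libraries overlapped.

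Among the AP-1 subunits in gastrocnemius, *Fosb* was at -0.68 (SE 0.54), *Fos* at -0.27 (SE 0.49), *Junb* at 0.019 (SE 0.26) and *Jun* at 0.016 (SE 0.14) for WD + CHP vs. WD. *Egr1* was at 0.32 (SE 0.53), *Egr2* at -0.12 (SE 0.31), *Dusp1* at -0.28 (SE 0.25), *Ier2* at 0.085 (SE 0.23) and *Nr4a1* at -0.040 (SE 0.17). Without WD + CHP replicate 3, *Fosb* was at -1.65 (adjusted p = 0.189, edgeR), *Fos* at -1.06, *Egr1* at -0.78, *Dusp1* at -0.57 and *Egr2* at -0.48. In kidney, *Egr1* was at 0.54 (SE 0.61), and at -0.56 without WD + CHP replicate 4. Without the same library *Fos* was at -1.07, *Fosb* at -0.75 and *Dusp1* at -0.54. With it, *Fosb* was at -0.30 (SE 0.59), *Dusp1* at -0.26 (SE 0.24), *Fos* at -0.23 (SE 0.57) and *Nr4a1* at 0.12 (SE 0.28). *Jun* was at -0.059 (SE 0.26), *Junb* at -0.057 (SE 0.19), *Ier2* at -0.037 (SE 0.16) and *Atf3* at 0.013 (SE 0.24).

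**Figure D3:**
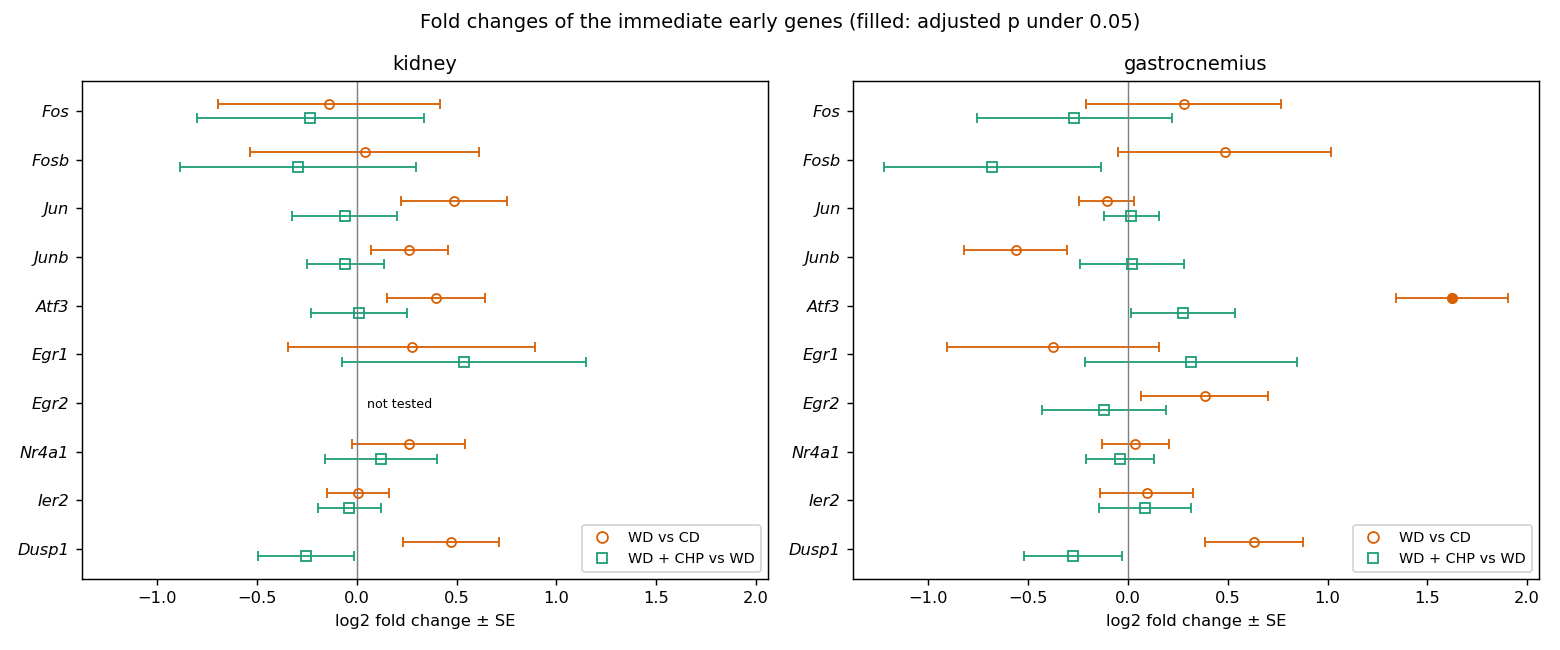
Log2 fold change ± SE of each immediate early gene for WD vs. CD (circles) and WD + CHP vs. WD (squares) in kidney and gastrocnemius; filled symbols have an adjusted p under 0.05 in edgeR's quasi-likelihood test. Atf3 in gastrocnemius under WD vs. CD, at 1.62, is the 1 filled symbol.

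For WD + CHP vs. CD, 0 of 9 members were called in kidney, where 12.1% of all genes were, and 1 of 10, *Atf3*, in gastrocnemius, where 9.4% were. Unadjusted p-values under 0.05 were found for 0 and 1 members, against 27.4% and 25.2% of all genes. In kidney *Atf3* was at 0.41 (SE 0.25, adjusted p = 0.307) for this comparison. In gastrocnemius *Junb* was at -0.54 (SE 0.26, adjusted p = 0.201), and without WD + CHP replicate 3 at -0.88 with an adjusted p of 0.0225 (edgeR). Whether the effect of the WD differed between the tissues was tested on all 30 libraries. Of the 9 members tested in both tissues, 0 were called for WD vs. CD, where 4.13% of 18708 genes were, and 0 for WD + CHP vs. WD, where 0.347% were. *Egr2* passed the filter of this fit through gastrocnemius alone and is not counted. Unadjusted p-values under 0.05 (edgeR) were found for 2 and 0 members, against 17.7% and 11.8% of all genes, and DESeq2 and limma-voom called 0. For *Atf3* the kidney effect minus the gastrocnemius effect was -1.23 (SE 0.46, unadjusted p = 0.0119, adjusted p = 0.133, edgeR), and for *Junb* 0.83 (SE 0.34, unadjusted p = 0.0224, adjusted p = 0.185). The *Atf3* rise was called in gastrocnemius and not in kidney, but the difference between the tissues did not pass the threshold.

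A shared feature of the members was their spread between libraries of the same group. The biological coefficient of variation, edgeR's estimate of that spread beyond counting error, was 65.4% for *Egr1*, 61.1% for *Fos* and 61.1% for *Fosb* in kidney, against a median of 8.31% over the 17120 genes tested. In gastrocnemius it was 58.2% for *Fosb*, 56.4% for *Egr1* and 52.5% for *Fos*, against 9.80%. These 3 genes stood at or above percentile 99.3 of all genes in both tissues. *Jun* (15.5%) and *Nr4a1* (18.8%) were the steadiest members in gastrocnemius, and *Ier2* (16.7%) and *Junb* (20.9%) in kidney. The lowest percentiles were 83.8 in kidney and 74.0 in gastrocnemius.

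**Figure D4:**
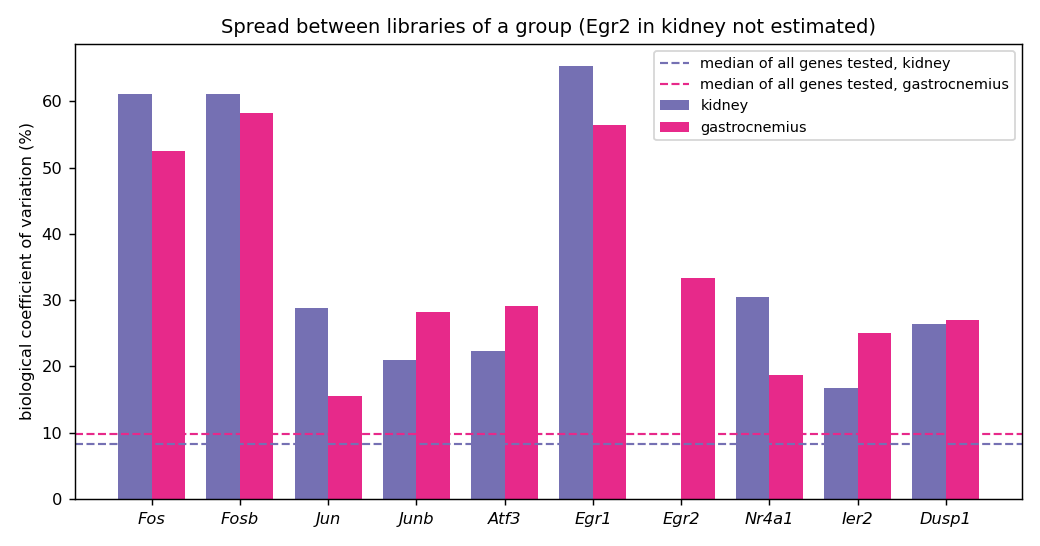
Biological coefficient of variation in percent of each immediate early gene in kidney and gastrocnemius (bars), with the median of all genes tested in each tissue (dashed lines). Every bar lies above its tissue's median, with Fos, Fosb and Egr1 above 50% in both tissues.

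With the group means taken off, the 36 pairs of members in kidney had a median Pearson correlation of 0.67 over 15 libraries (range 0.27 to 0.96), and the 45 pairs in gastrocnemius a median of 0.55 (range 0.049 to 0.96). In kidney, WD + CHP replicate 4 was highest of its group in 9 of 9 members and WD replicate 3 in 8 of 9, while WD + CHP replicate 5 was lowest in 7 of 9. In gastrocnemius WD + CHP replicate 3 was highest in 8 of 10 and WD replicate 4 in 7 of 10. On average the members of kidney WD + CHP replicate 4 lay 1.14 above their group means on the log2 scale, and those of gastrocnemius WD + CHP replicate 3 lay 1.12 above. Without these 2 libraries the median pair correlation was 0.58 in kidney (range -0.023 to 0.95), with 21 of 36 pairs over 0.5 and 1 negative, and 0.33 in gastrocnemius (range -0.14 to 0.92), with 14 of 45 over 0.5 and 6 negative.

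*Fos* was set against each other member in the same residuals, 17 relations in all, with two-sided permutation tests within groups and Benjamini-Hochberg adjustment. *Egr1* followed *Fos* closely in kidney, with r = 0.96 (permutation p = 1.0e-05, adjusted p = 1.7e-04, and rho = 0.95, permutation p = 1.0e-05, adjusted p = 1.7e-04), and in gastrocnemius, with r = 0.93 (permutation p = 7.0e-05, adjusted p = 3.0e-04, and rho = 0.94, permutation p = 7.0e-05, adjusted p = 6.0e-04). Without the 2 libraries farthest from the median *Fos* value (WD + CHP replicates 4 and 5 in kidney, WD + CHP replicate 3 and CD replicate 1 in gastrocnemius) r was 0.94 and 0.84. *Ier2* gave r = 0.91 (permutation p = 2.0e-05, adjusted p = 1.7e-04, and rho = 0.84, permutation p = 7.3e-04, adjusted p = 0.00310) in kidney, and *Jun* gave r = 0.93 (permutation p = 5.0e-05, adjusted p = 2.8e-04, and rho = 0.81, permutation p = 9.8e-04, adjusted p = 0.00333). In gastrocnemius *Junb* gave r = 0.92 (permutation p = 4.7e-04, adjusted p = 0.00160, and rho = 0.85, permutation p = 4.5e-04, adjusted p = 0.00255), *Ier2* gave r = 0.90 (permutation p = 6.6e-04, adjusted p = 0.00187, and rho = 0.82, permutation p = 0.00181, adjusted p = 0.00513), and *Dusp1* gave r = 0.81 (permutation p = 0.00271, adjusted p = 0.00512, and rho = 0.70, permutation p = 0.00851, adjusted p = 0.0161). Without the 2 farthest libraries r was 0.84 and 0.86 for the kidney genes and 0.84, 0.75 and 0.79 for the gastrocnemius genes. The smallest p that 100000 draws can give is 1.0e-05. Relations of other genes with *Fos*, and pairs of other genes, are not given. No share of all genes therefore stands beside these relations or the pair correlations above, and they are not read as particular to the members.

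The relation of *Atf3* with *Fos* did not pass: r was 0.45 in kidney (permutation p = 0.171, adjusted p = 0.207) and 0.10 in gastrocnemius (permutation p = 0.775, adjusted p = 0.775), and 0.19 and 0.19 without the 2 farthest libraries. *Jun* (r = 0.34, permutation p = 0.388, adjusted p = 0.413), *Nr4a1* (r = 0.33, permutation p = 0.314, adjusted p = 0.356) and *Egr2* (r = 0.52, permutation p = 0.106, adjusted p = 0.139) did not pass in gastrocnemius either. The remaining relations, *Fosb* in both tissues and *Junb*, *Nr4a1* and *Dusp1* in kidney, had r between 0.67 and 0.85 with adjusted permutation p-values of 0.00365 to 0.0370. Without the 2 farthest libraries their r was 0.57 to 0.72. By rank, *Nr4a1* and *Dusp1* in kidney missed the threshold, with adjusted permutation p-values of 0.0580 and 0.0517.

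**Figure D5:**
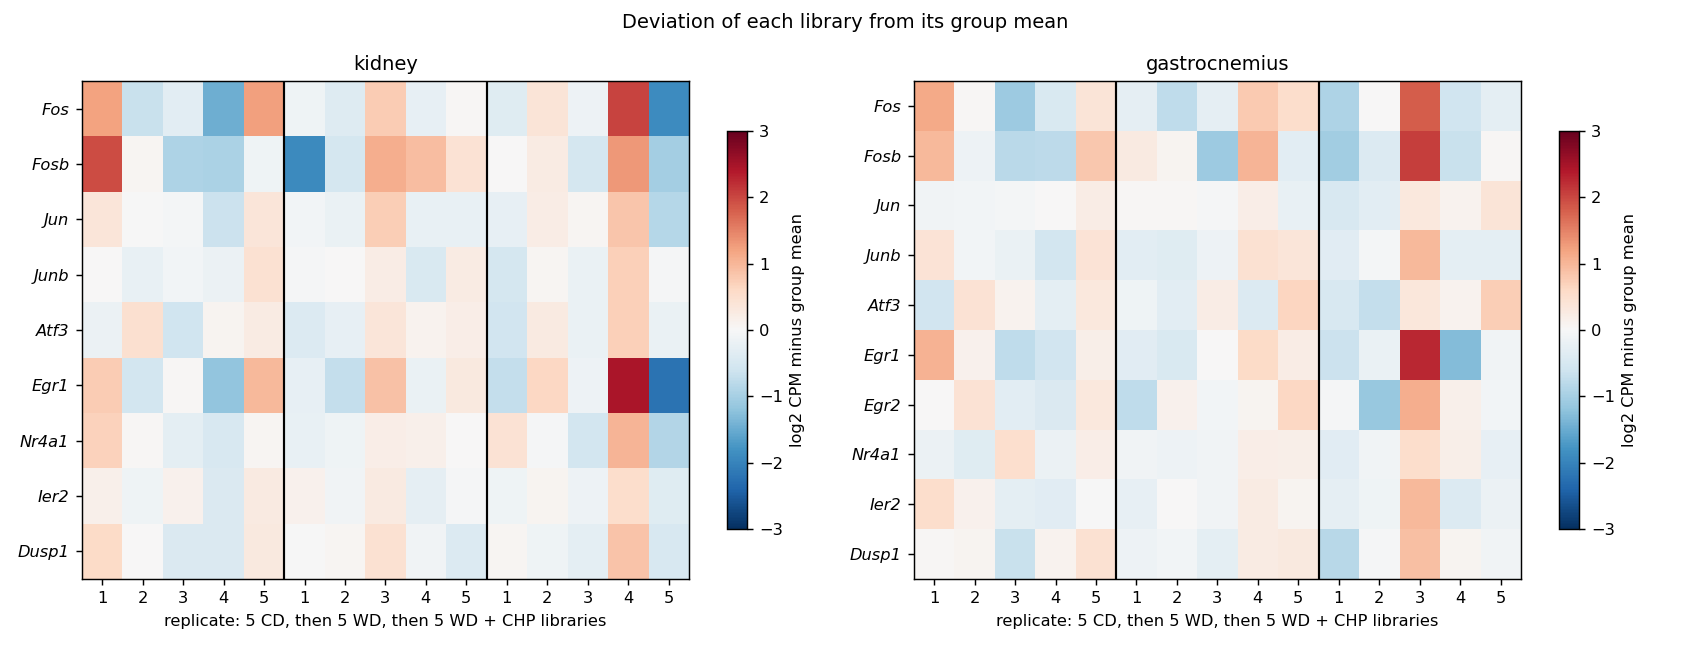
Log2 CPM minus the group mean for each immediate early gene that passed the filter (rows) in the 15 libraries of each tissue (columns, replicates 1 to 5 of CD, WD and WD + CHP). Red columns show libraries in which most members are high together, such as kidney WD + CHP replicate 4 and gastrocnemius WD + CHP replicate 3.

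Outside the members, the genes with a mean log2 CPM of at least 1 that were most like the members' mean in these residuals were, in kidney, *Zfp36* (r = 0.85), *Stc1* (r = 0.85), *Adh7* (r = 0.83), *Cfap97* (r = 0.81) and *Uaca* (r = 0.81), the best of 12453 genes. *Zfp36*, an early response gene whose protein speeds mRNA decay, led them. In gastrocnemius they were *Sat1* (r = 0.88), *CAAA01118383.1* (r = 0.86), *Zc3h12a* (r = 0.84), *Trappc3* (r = 0.83) and *Cdk5* (r = 0.82), of 10849 genes. *Zc3h12a* encodes an RNase that degrades inflammatory mRNAs, and *Sat1* an enzyme of polyamine breakdown. The same measure, across 15 libraries and as a description, was 0.36 for the mitochondrial share of counts in kidney and 0.23 in gastrocnemius, and -0.066 and -0.30 for the total count. For the mean of the smooth muscle markers it was 0.19 and 0.60, for macrophage markers 0.20 and 0.15, for red blood cell genes 0.0077 and -0.41, and for heat shock genes 0.077 and 0.32. All genes of these 4 lists passed the filter in both tissues, but for 1 of 5 red blood cell genes in gastrocnemius. Their part in the members' spread was not tested. In tissue RNA, fewer cells of a type and less RNA per cell cannot be told apart.

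A list of 45 further early response genes was read in the same fits. In kidney 42 passed the filter and 8 were called for WD vs. CD (9.65% of all genes were), 6 higher and 2 lower, and the median log2 fold change of the 42 was 0.083. The 6 with the largest changes were *Ptgs2* (1.22, adjusted p = 0.0149), the inducible cyclooxygenase, *Dusp2* (0.81, adjusted p = 0.0148), a nuclear phosphatase of MAP kinases, *Klf2* (0.48, adjusted p = 0.0252), *Klf4* (0.46, adjusted p = 0.00822), *Klf10* (-0.41, adjusted p = 0.0166), which are Krüppel-like factors, and *Rhob* (0.39, adjusted p = 0.00971), a small GTPase. *Ptgs2* in CD was at 0.409 ± 0.0398 CPM (SD, n = 5) and in WD at 0.955 ± 0.386, without overlap. Between WD + CHP and WD, 0 of 42 were called and 5 had an unadjusted p under 0.05 (edgeR), where 11.4% of all genes did, with the smallest p in *Klf4* (-0.34, adjusted p = 0.177), *Ppp1r15a* (-0.21, adjusted p = 0.198) and *Klf2* (-0.31, adjusted p = 0.350). Against CD, where 12.1% of all genes were called, 5 were in WD + CHP: *Hbegf* (0.54, adjusted p = 0.0159), *Csrnp1* (-0.51, adjusted p = 0.0172), *Pim1* (-0.30, adjusted p = 0.0391), *Errfi1* (0.29, adjusted p = 0.0389) and *Ppp1r15a* (-0.24, adjusted p = 0.0209).

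In gastrocnemius 43 of the 45 passed and 6 were called for WD vs. CD (8.63% of all genes were), 3 higher and 3 lower, and the median log2 fold change of the 43 was 0.25. *Csrnp1* (1.17, adjusted p = 0.00440), *Jund* (0.56, adjusted p = 2.3e-04) and *Trib1* (0.50, adjusted p = 0.0347) rose, and *Pim1* (-1.11, adjusted p = 0.00143), *Myc* (-0.64, adjusted p = 0.0312) and *Ppp1r15a* (-0.39, adjusted p = 0.0290) fell. *Jund*, the AP-1 subunit that is expressed without stimulation in most tissues, was at 29.4 ± 2.74 CPM in CD and 43.5 ± 2.47 in WD (SD, n = 5), without overlap. *Pim1*, a kinase gene induced by cytokines, was at 39.8 ± 6.49 and 18.5 ± 3.49 CPM, again without overlap. Between WD + CHP and WD, 0 of 43 were called and 4 had an unadjusted p under 0.05 (edgeR), where 12.5% of all genes did, with the smallest p in *Klf10* (-0.50, adjusted p = 0.264), *Socs3* (1.65, adjusted p = 0.268) and *Nr4a3* (0.91, adjusted p = 0.338). Against CD, where 9.4% of all genes were called, 8 were in WD + CHP, 5 higher and 3 lower, of which the 6 largest were *Nr4a3* (1.39, adjusted p = 0.0356), *Csrnp1* (1.03, adjusted p = 0.0104), *Pim1* (-0.90, adjusted p = 0.00578), *Klf10* (-0.87, adjusted p = 0.00725), *Trib1* (0.81, adjusted p = 0.00218) and *Myc* (-0.79, adjusted p = 0.0104).

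Of 19 genes that act upstream of the members (SRF and its partners, CREB proteins and MAP kinases), all 19 passed in both tissues. In kidney 1 was called for WD vs. CD, *Braf* (-0.18, adjusted p = 0.0255), where 9.65% of all genes were, and 1 for WD + CHP vs. CD, *Creb1* (0.24, adjusted p = 0.0444), where 12.1% were. Between WD + CHP and WD, 0 of 19 were called in kidney, where *Braf* (0.17, adjusted p = 0.168), *Map2k1* (-0.10, adjusted p = 0.408) and *Mapk8* (0.080, adjusted p = 0.490) had the smallest p. In gastrocnemius 0 were called in any of the 3 comparisons (edgeR), and 2 of the 19 had an unadjusted p under 0.05 each time, against 23.7% of all genes for WD vs. CD, 12.5% for WD + CHP vs. WD and 25.2% for WD + CHP vs. CD. The smallest p were those of *Srf* (-0.13, adjusted p = 0.0770), *Map2k1* (-0.14, adjusted p = 0.134) and *Mapk9* (-0.12, adjusted p = 0.234) for WD vs. CD, *Srf* (0.14, adjusted p = 0.172), *Map2k1* (0.14, adjusted p = 0.325) and *Map2k2* (0.10, adjusted p = 0.449) for WD + CHP vs. WD, and *Braf* (-0.25, adjusted p = 0.0675), *Mapk9* (-0.14, adjusted p = 0.159) and *Crtc2* (-0.066, adjusted p = 0.364) for WD + CHP vs. CD. These are mRNA levels, and the activity of the kinases was not measured here.

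Markers of other cells and stress genes were read beside *Atf3* in gastrocnemius, where 8.63% of all genes were called for WD vs. CD, 9.4% for WD + CHP vs. CD and 0.409% for WD + CHP vs. WD. Of 8 heat shock genes, 2 rose for WD vs. CD, *Hspa1a* (1.64, adjusted p = 1.2e-04) and *Hspa1b* (1.55, adjusted p = 3.8e-04), near-identical copies whose reads may be split, and 4 for WD + CHP vs. CD. The mean of *Hspa1a* was 3.99 ± 0.898 CPM (SD, n = 5) for CD, 12.5 ± 1.66 for WD and 18.7 ± 5.47 for WD + CHP. The summed level of the 8 genes was 1113 to 1331 (CD), 1148 to 1540.0 (WD) and 1285 to 1526 (WD + CHP) CPM. Of 4 smooth muscle markers, 2 rose in both comparisons, *Acta2* (0.59, adjusted p = 0.00315) and *Tagln* (0.53, adjusted p = 0.00953) for WD vs. CD, with a summed level of 117 to 153 (CD), 169.6 to 211 (WD) and 157 to 211 (WD + CHP) CPM. Of 6 adipocyte markers 4 rose and 1 fell for WD vs. CD, among them *Lep* (3.96, adjusted p = 5.4e-05) and *Cfd* (-1.59, adjusted p = 5.5e-04), and their sum was 45.6 to 83.6 (CD), 76.2 to 90.5 (WD) and 30.4 to 54.8 (WD + CHP) CPM. Under CHP 4 of these 6 fell against WD. Of 7 macrophage markers 0 were called for WD vs. CD, but 7 were higher, at a median of 0.36. Of these, 3 had an unadjusted p under 0.05 (edgeR), against 23.7% of all genes. For WD + CHP vs. WD 7 were lower, at a median of -0.16, and 0 had such a p. The macrophage sum was 58.3 to 97.3 (CD), 68.0 to 94.6 (WD) and 49.8 to 103 (WD + CHP) CPM. Of 7 fast fibre genes 2 fell for WD vs. CD (*Ckm* (-0.26, adjusted p = 0.0257) and *Acta1* (-0.22, adjusted p = 0.0288)), with a sum of 185353 to 223707 (CD), 161142 to 189765 (WD) and 171316 to 198200.0 (WD + CHP) CPM. No red blood cell gene of the 4 that passed was called, with a sum of 2.59 to 12.2 (CD), 3.83 to 49.4 (WD) and 4.31 to 20.3 (WD + CHP) CPM. All 4 were higher for WD vs. CD, at a median of 1.60, and 3 had an unadjusted p under 0.05 (edgeR). For WD + CHP vs. WD all 4 were lower, at a median of -1.37, and 4 had such a p, against 12.5% of all genes. None of 5 endothelial markers was called, with a sum of 249 to 293 (CD), 224 to 270.1 (WD) and 235 to 271 (WD + CHP) CPM. The part of these cells and of the stress genes in the *Atf3* result was not tested. In kidney, where no member was called, 0 heat shock genes were called for WD vs. CD, where 9.65% of all genes were. For WD + CHP vs. CD in kidney 2 of 8 were called, each higher, where 12.1% of all genes were. Their summed level in kidney was 1886 to 3133 (CD), 2524 to 2908 (WD) and 2642 to 3621 (WD + CHP) CPM.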

How the data were processed

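RNA-seq of kidney and gastrocnemius from mice given CD, WD or WD + CHP was analysed, with 5 libraries per group and tissue. The authors deposited raw counts per gene, 1 table per tissue, from polyA libraries sequenced on BGISEQ-500. Reads were cleaned with SOAPnuke and aligned to GRCm38 (mm10) with STAR 2.7.3a, per the submitters' processing notes. The counting tool, its annotation and its strand setting are not given in the sources used here. Per the labels the starting material was frozen liver, and the extraction kit differed between the tissues, while the study's methods name 1 kit and the kidney and gastrocnemius themselves.

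From the deposited counts, genes were kept by filterByExpr (minimum count 10), scaled by TMM and tested with edgeR 4.0.16 (R 4.3.3) by the quasi-likelihood F test, with the 3 groups of a tissue in 1 model. P-values were adjusted by Benjamini-Hochberg over all genes tested, with a threshold of 0.05. The difference between tissues was fitted on all 30 libraries. Standard errors are the fold change divided by the root of F, and 95% intervals use 12 residual degrees of freedom. Log2 CPM for correlations used a prior count of 2. Levels per kilobase used the union of GENCODE M21 exons. Alternatives used DESeq2 1.42.0, limma 3.58.1, other scalings and filters, a replicate block and leaving out each library. The scripts were tested on simulated data.

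The members and the lists of further genes were chosen with earlier results of these data known. All 10 members are named in both tissues. Of the wider list, the 6 called genes with the largest change are named, or the 3 with the smallest p where none was called. The most similar genes are the 5 with the highest correlation with the members' mean. No column of the tables lacked a sample. Total counts of 37189192 to 53282969 per library limit the precision of the low members: per library, *Egr2* had 0 to 3, *Fosb* 5 to 66, *Atf3* 18 to 55 and *Fos* 20 to 292 counts in kidney, and *Fosb* 24 to 217 and *Egr2* 32 to 148 in gastrocnemius. The other members had at least 129. No 2 libraries of a group held the same counts within sampling noise. *Egr1* and *Ier2* had no promoter window.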

Additional observations from a re-analysis of the deposited data

Results flagged for a closer look

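In 3 of 57 sets of 5 libraries (a gene in a group of a tissue), 1 library stood farther from the others on the log2 CPM scale than Dixon's 95% limit of 0.71 of the range allows. Chance alone gives about 1 in 20 sets. In kidney, *Jun* in WD replicate 3 was at 77.5 CPM, and its gap to the next library was 0.84 of the range of the WD group in log2 CPM. In gastrocnemius, *Junb* in WD + CHP replicate 3 was at 16.7 CPM with a gap of 0.797 of the log2 range, and *Ier2* in that library was at 10.97 CPM with a gap of 0.799. On the CPM scale 11 of the 57 sets pass the same limit, so the number depends on the scale. In each of them the highest library stands apart: in kidney *Fos* in WD and WD + CHP, *Fosb* and *Junb* in CD, *Jun* in WD and *Egr1* in WD + CHP, and in gastrocnemius *Fos*, *Fosb*, *Junb*, *Egr1* and *Ier2* in WD + CHP. Kidney WD replicate 3 and gastrocnemius WD + CHP replicate 3 were also the highest of their groups in most other members.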

How the results depend on the processing

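*Atf3* in gastrocnemius was called for WD vs. CD and WD + CHP vs. CD under each alternative run (DESeq2, limma-voom with and without quality weights, DESeq2 size factors or total counts for scaling, no filter or a stricter one, a threshold of 0.1, only the 2 groups compared, the replicate block and each library left out). Its log2 fold change ranged from 1.57 to 1.69 and 1.84 to 1.93 over the settings (adjusted p 9.4e-06 to 0.00651 and 1.3e-07 to 0.00225), and from 1.43 to 1.74 and 1.68 to 2.05 with a library left out. With only the 2 groups compared, 2 members were called for WD vs. CD in gastrocnemius, as *Dusp1* (0.63) reached an adjusted p of 0.0491, where its adjusted p ranged from 0.0491 to 0.167 over the settings. In that fit 1009 of 15147 genes were called, against 1330 of 15419. Leaving out 1 library gave 1 to 2 members called for WD + CHP vs. CD in gastrocnemius, with 2 in the absence of WD + CHP replicate 3, where 873 of 15539 genes were called, against 1450 of 15419, and *Junb* from -0.88 to -0.43. The cause was not tested.

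The settings were compared for the fold changes the report gives: all members tested for WD vs. CD and for WD + CHP vs. WD, *Atf3* in both tissues and *Junb* in gastrocnemius for WD + CHP vs. CD, and *Atf3* and *Junb* for the difference between tissues under WD vs. CD. Over these and the settings, 403 of 426 values kept their direction and side of the threshold under the other settings and 22 turned sign, none of them called. For WD vs. CD in kidney these were *Fos* 0.16 (limma-voom) and 0.25 (quality weights) and *Ier2* -0.013 (total counts). In kidney they were, for WD + CHP vs. WD with limma-voom, *Atf3* -0.030, *Egr1* -0.17 and *Nr4a1* -0.027, with quality weights -0.087, -0.21 and -0.048 for the same genes, and with total counts *Atf3* -0.023. In gastrocnemius they were, for WD + CHP vs. WD with limma-voom, *Jun* -0.018, *Junb* -0.035, *Egr1* -0.24 and *Ier2* -0.0029, with quality weights *Jun* -0.0017 and *Nr4a1* 0.0096, and with total counts *Jun* -0.025 and *Junb* -0.022. The cause was not tested.

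Same-numbered libraries did not deviate together (correlations of -0.093 to 0.15 in kidney and -0.17 to 0.10 in gastrocnemius), so the numbers do not pair the libraries. The replicate block changed no call of a member, and with it the sign turned for *Atf3* in kidney (-0.016) and for *Jun* (-0.015), *Junb* (-0.014) and *Egr1* (-0.079) in gastrocnemius, all for WD + CHP vs. WD.

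With 1 library left out, 397 of 450 values of the same fold changes kept direction and side and 52 turned sign. The ranges of the genes concerned were, for WD vs. CD in kidney, *Egr1* -0.0020 to 0.55, *Fos* -0.38 to 0.19, *Fosb* -0.22 to 0.90, *Ier2* -0.082 to 0.079, and in gastrocnemius *Nr4a1* -0.043 to 0.18. The WD + CHP vs. WD ranges were, in kidney, *Atf3* -0.20 to 0.14, *Egr1* -0.56 to 0.83, *Fos* -1.07 to 0.038, *Ier2* -0.19 to 0.046, *Jun* -0.31 to 0.18, *Junb* -0.28 to 0.066, *Nr4a1* -0.20 to 0.30, and in gastrocnemius *Egr1* -0.78 to 0.56, *Egr2* -0.48 to 0.078, *Ier2* -0.26 to 0.19, *Jun* -0.086 to 0.12, *Junb* -0.32 to 0.14, *Nr4a1* -0.19 to 0.042. The median correlation between members was 0.58 in kidney without WD + CHP replicate 4 and 0.33 in gastrocnemius without WD + CHP replicate 3.

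The background of all genes called also moved. For WD + CHP vs. WD it was 18 genes in kidney and 0 to 168 under the other settings, and 63 in gastrocnemius and 40 to 249, and with 1 library left out it was 0 to 97 and 12 to 92. With total counts the split for WD + CHP vs. CD in kidney was 660 higher and 1814 lower, against 1070 and 1000, for WD vs. CD in gastrocnemius 1506 and 346, against 720 and 610, and for WD + CHP vs. WD there 0 and 54, against 10 and 53. Low counts limit *Egr2* in kidney, which did not pass the filter of the main fit and was not tested in it. The spread between libraries limits *Fos*, *Fosb* and *Egr1*, whose 95% intervals are the widest of the members.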

Other observations

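The AP-1 subunit gene *Jund* had 27.5 to 45.6 CPM in the gastrocnemius libraries but was listed at 0 in 14 of 15 kidney libraries, with 0.026 CPM (1 count) in the remaining one, WD replicate 4. The kidney counts list 54838 genes and the gastrocnemius counts 55487. Most tissues express *Jund*, so the kidney value is not read here as absence of the transcript, and no comparison of *Jund* was made in kidney. The reason for the low count was not tested.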
